A study of Mus musculus with 4 samples.

Results

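Contractile genes and targets of the transcription factors SRF and YAP were followed in mouse fibroblasts with and without SIN1, a subunit of mTOR complex 2. The set holds 12 of the 45101 probe sets on the array, which stand for 9 genes. They were chosen by manufacturer ID, with no measured value in the rule: Acta2, Tagln, Cnn1, Myl9, Tpm1 and Tpm2 (7 probe sets) for the contractile apparatus, and Ctgf, Cyr61 and Ankrd1 (5 probe sets) for the genes induced through SRF or YAP. The gene of each ID came with that rule, since the deposited table names probe sets by ID alone. The genes were chosen with earlier results of these data known, so comparisons of the set with all probe sets are descriptive.

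The series holds 4 arrays, 2 of wild type and 2 of SIN1 KO cells. Both genotypes are fibroblasts of the C57BL/6 strain, called MEFs and spelled out in the labels as epithelial, grown in DMEM without a further treatment named. The SIN1 KO cells had the SIN1 gene ablated and are described as altered in metabolism. The labels do not say whether a genotype is 1 line or several, or whether its arrays are separate cultures, so each p-value reflects the spread of these 4 arrays alone, and part of it may be technical. The level of the ablated gene, Mapkap1, and the markers of fibroblasts or other cell types were not analysed here, so neither the genotype nor the cell type was checked.

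Smooth muscle actin, transgelin, calponin, the regulatory myosin light chain and tropomyosins build or regulate the actin filaments with which fibroblasts pull on their surroundings. Many of their genes are switched on by SRF, which binds a DNA element called the CArG box and works with coactivators that monomeric actin keeps out of the nucleus. YAP is a coactivator that enters the nucleus of spread, tense cells and acts through TEAD factors. Ctgf, Cyr61 and Ankrd1 are commonly read as its targets, and Cyr61 and Ctgf respond to SRF as well. mTOR complex 2 is known both for phosphorylating AKT and for its part in organising the actin cytoskeleton.

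The arrays did not group by genotype. Across the 45037 probe sets tested, which are not independent replicates, wild type 1 and SIN1 KO 1 were the closest pair (Pearson r = 0.971) and wild type 2 and SIN1 KO 2 the most distant (r = 0.904). The arrays of the same genotype correlated with r = 0.955 in wild type and 0.958 in SIN1 KO. A background level was set on each array as the highest of its 27 Bacillus subtilis control probe sets, at 3.75 to 4.27 on the log2 scale. Of the 48 values of the 12 probe sets, 44 lay above it.

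None of the 12 probe sets differed between the genotypes in limma's test adjusted over all probe sets (adjusted p 0.82 to 1.00), where 0% of all probe sets were called higher and 0% lower. At an unadjusted p of 0.05, 1 of 12 was higher in SIN1 KO, against 3% of all probe sets, and 0 of 12 were lower, against 2.57%. The former count moved with some left-out arrays, as did the number called over all probe sets. The 7 contractile probe sets had a median log2 difference, SIN1 KO minus wild type, of 1.83, and the 5 probe sets of Ctgf, Cyr61 and Ankrd1 one of -0.08, against 0.04 over all probe sets. Single arrays decided both medians. The contractile one was -0.20 without wild type 2, 1.304 without SIN1 KO 2, 4.65 without wild type 1 and 4.89 when SIN1 KO 1 was left out. The other was -0.85 without wild type 2, -0.91 without SIN1 KO 2, 0.41 without wild type 1 and 0.80 when SIN1 KO 1 was left out. Tpm2 alone had both SIN1 KO arrays above both wild type arrays, on each of its 2 probe sets. That makes 2 of 12 where 20.4% of all probe sets were so placed, and 0 of 12 had both SIN1 KO arrays below, against 14.9%. With fewer arrays to separate, 7 were placed above when wild type 1 was left out and 8 when SIN1 KO 1 was. Below were 4 when wild type 2 was left out and 5 when SIN1 KO 2 was. Leaving out an array loosens the rule for every probe set. The share over all probe sets was not computed for it, so these counts cannot be set against 20.4% and 14.9%. Most of the contractile genes, and Ctgf, varied widely between arrays of the same genotype, while Tpm1 and Ankrd1 varied less. In bulk RNA, fewer cells with a transcript and less transcript per cell cannot be told apart.

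**Figure D1:**
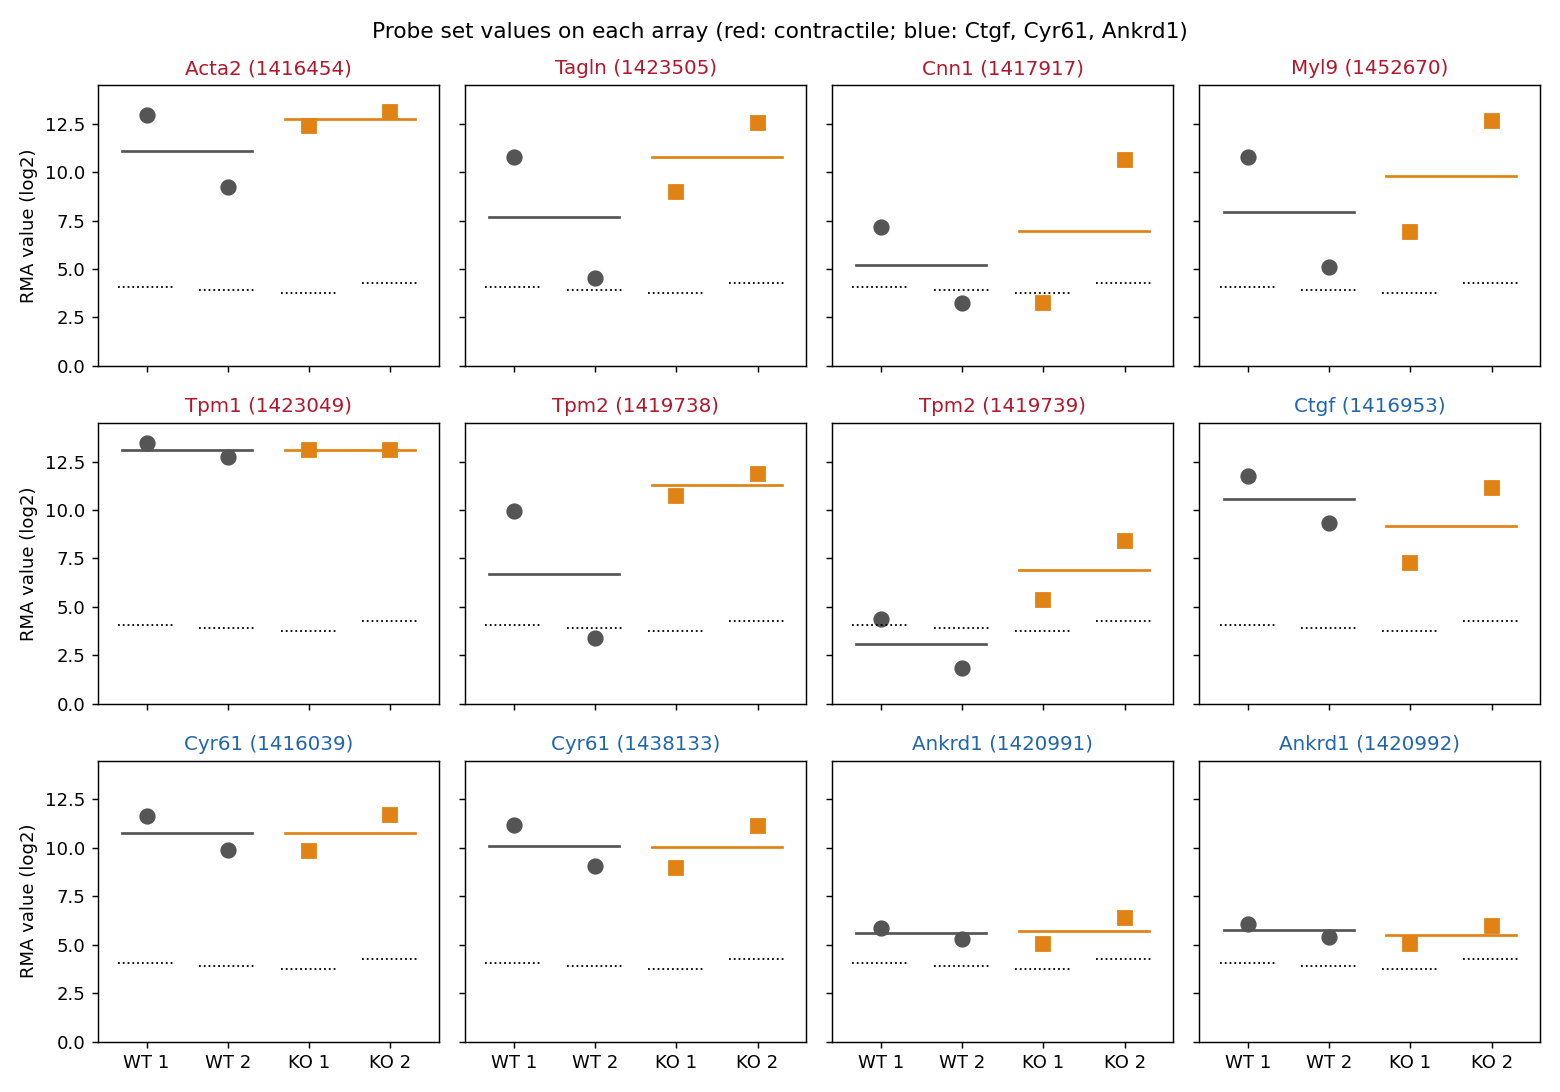
RMA values (log2, vertical axis) of the 12 probe sets on the 4 arrays (WT, wild type, grey circles; KO, SIN1 KO, orange squares); solid lines are genotype means and dotted lines each array's background level. Tagln ran from 4.56 on wild type 2 to 12.56 on SIN1 KO 2, while Tpm1 stayed between 12.74 and 13.45.

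Acta2 encodes smooth muscle alpha-actin, the filament protein that marks contractile fibroblasts. Its probe set, 1416454_S_AT, has the suffix s, used by the manufacturer where probes can also match related genes. It measured 12.95 on wild type 1, 9.21 on wild type 2, 12.39 on SIN1 KO 1 and 13.11 on SIN1 KO 2. Wild type 2 stood apart below the other arrays, which lay within 0.72 of each other, and the genotypes overlapped. The log2 difference was 1.67 (SE 1.31, 95% interval -1.84 to 5.17, limma adjusted p 0.823), and without wild type 2 it was -0.20.

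Transgelin, encoded by Tagln, is an actin-binding protein of smooth muscle and of contractile fibroblasts. Probe set 1423505_AT measured 10.80 and 4.56 on the wild type arrays and 8.98 and 12.56 on the SIN1 KO arrays, in the order of their numbers. The wild type arrays were 75.5-fold apart and the SIN1 KO arrays 12-fold apart, and wild type 1 lay between the SIN1 KO arrays. The log2 difference of 3.10 (SE 2.44, 95% interval -3.46 to 9.65, limma adjusted p 0.824) was smaller than the distance within either genotype. It was -0.02 without wild type 2 and 6.22 without wild type 1.

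Cnn1 encodes calponin, which binds actin and restrains the myosin motor in smooth muscle. On probe set 1417917_AT it was above background on wild type 1 (7.18) and SIN1 KO 2 (10.62) and below it on wild type 2 (3.23) and SIN1 KO 1 (3.25). Each genotype thus had a bright and a dark array. Against the background level of the dark array, the distance was at least 9.65-fold in wild type and at least 117-fold in SIN1 KO. The genotype difference was 1.73 (SE 2.83, 95% interval -5.87 to 9.34, limma adjusted p 0.904), turning to -0.24 without wild type 2 and to -1.95 when SIN1 KO 2 was left out. These values include the arrays below background. With the background level in their place the difference was 1.64, then 0.004 without wild type 2 and -1.80 without SIN1 KO 2.

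The regulatory light chain of myosin, whose phosphorylation sets off contraction, is encoded by Myl9. Probe set 1452670_AT measured 10.78 on wild type 1, 5.12 on wild type 2, 6.91 on SIN1 KO 1 and 12.64 on SIN1 KO 2. The order of the arrays was that of Tagln, with wild type 1 again between the SIN1 KO arrays. The arrays were 50.4-fold apart in wild type and 53.3-fold apart in SIN1 KO, ranks 19 and 16 among all probe sets. The genotype difference was 1.83 (SE 2.73, 95% interval -5.50 to 9.16, limma adjusted p 0.893), which became -1.001 when wild type 2 was left out and -1.04 when SIN1 KO 2 was.

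Tropomyosins wind along actin filaments and govern which proteins can bind them. The Tpm1 probe set was 1423049_A_AT, whose suffix marks several transcripts of a single gene. Its wild type arrays were at 13.45 and 12.74 and both SIN1 KO arrays at 13.11. The wild type arrays were thus 0.71 apart, where the median over all probe sets was 0.38. The log2 difference of Tpm1 was 0.02 (SE 0.34, 95% interval -0.89 to 0.93, limma adjusted p 0.996), and cyclic loess scaling turned it to -0.08. It was also -0.33 without wild type 2 and 0.37 without wild type 1. Tpm1 was the narrowest of the contractile intervals, although wild type 2 was its lowest array too.

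Tpm2 was the gene whose genotypes did not overlap. Probe set 1419738_A_AT measured 9.97 on wild type 1, 3.38 on wild type 2, 10.71 on SIN1 KO 1 and 11.85 on SIN1 KO 2. Wild type 2 was below background, and wild type 1 was closer to the SIN1 KO arrays than to wild type 2, from which it was at least 66.8-fold apart. The log2 difference was 4.60 (SE 2.27, 95% interval -1.49 to 10.70, limma adjusted p 0.82), or 4.34 with the background level in place of the lower value. Without wild type 2 it was 1.31, and without wild type 1, which leaves wild type with its array below background, it was at least 7.37.

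The other Tpm2 probe set, 1419739_AT, measured 4.36 on wild type 1, 1.84 on wild type 2, 5.38 on SIN1 KO 1 and 8.38 on SIN1 KO 2. Wild type 2 was again below background, and wild type 1 lay just above the background of its array, 4.05. This was the probe set with an unadjusted p under 0.05 (0.0435, limma), but its adjusted p was 0.82. The log2 difference of 3.78 (SE 1.35, 95% interval 0.17 to 7.40) was 2.75 with background in place of the lower value. It was 2.52 without wild type 2 and 2.28 without SIN1 KO 2, the latter 1.25 with background in place of the lower value. With the replicate number as a block its unadjusted p in limma was 0.0771, and with the crossed pairing (wild type 1 with SIN1 KO 2) it was 2.6e-04. Neither passed after adjustment (adjusted p 1.00 and 0.304). No label names the crossed pairing. With it, 2899 of 45037 probe sets were higher and 3473 lower at an unadjusted p of 0.05.

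Sequence upstream of the contractile genes was searched for CArG boxes, CC and GG around a run of A or T bases, because SRF is the factor the genes are known for. RefSeq windows of build GRCm38.p6 were at hand for 7 of the 9 genes, Tagln and Ctgf being the others, and the 250 bases before the listed start were read. A strict CArG box was found in 1.47% of the 32851 windows of this length, and a box with 1 C or G in its run in 7.24%. The pattern reads the same on both strands. Among the 7 windows Myl9 alone held a strict box, from -161 to -152 counted back from the start, and it held a second, looser box from -99 to -90. Acta2 held 2 looser boxes, from -84 to -75 and from -34 to -25. They are shown with boxes in capitals, since Myl9 was among the most variable genes of the set and Acta2 the classic SRF target. The Myl9 stretch is chr2:156775214-156775407 on the plus strand, and the Acta2 stretches are chr19:34255438-34255467 and chr19:34255388-34255417 on the minus strand.
Myl9: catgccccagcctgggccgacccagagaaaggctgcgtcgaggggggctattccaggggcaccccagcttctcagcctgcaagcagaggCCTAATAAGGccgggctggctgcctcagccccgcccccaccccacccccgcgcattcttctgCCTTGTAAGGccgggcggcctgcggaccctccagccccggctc
Acta2, first box: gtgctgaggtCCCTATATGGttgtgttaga
Acta2, second box: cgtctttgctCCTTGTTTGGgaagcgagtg
The Acta2 stretches lie inside the RefSeq gene record, which begins further upstream than the start used for the window. Neither form was present in the Cnn1, Tpm1 or Tpm2 windows, which says only that these letters are not there.

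Wild type 2 was the lowest array for 7 of the 7 contractile probe sets, where it was lowest for 37.6% of all probe sets. SIN1 KO 2 was the highest for 6 of the 7, against 37.2%, Tpm1 being the exception. Both shares were looked up after the order had been seen. Wild type 2 remained lowest for all 7 under median centring, cyclic loess and scaling to the hybridisation controls. It was lowest for 6 when values were raised to the array background, where Cnn1 on SIN1 KO 1 came out lower. As deposited, Cnn1 was below background on both arrays, at 3.23 on wild type 2 and 3.25 on SIN1 KO 1. Raised values were the background levels themselves, 3.91 and 3.75, so for Cnn1 neither order rests on signal above background. The share over all probe sets was not computed under these settings.

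Distances between arrays of the same genotype were large for most of the contractile probe sets. The 99th percentile over all probe sets was 2.57 log2 units in wild type and 2.503 in SIN1 KO. Of the contractile probe sets, 5 of 7 reached it in wild type and 4 of 7 in SIN1 KO, where 1% of all probe sets do so in each. Tagln, Cnn1 and Myl9 reached it in both, as did 78 of 45037 probe sets in all (0.173%). The count holds for Cnn1 at its lower bounds, 3.27 and 6.87. The Tpm2 probe sets split in opposite ways. 1419738_A_AT was past it in wild type (at least 6.06) and not in SIN1 KO (1.15), while 1419739_AT was past it in SIN1 KO (3.003) and not in wild type (2.52, or 0.45 with background in place of the lower value). Acta2 was past it in wild type alone, with 3.73 between its wild type arrays and 0.72 between its SIN1 KO arrays. Whether the wide spread differs between the genotypes was not tested.

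**Figure D2:**
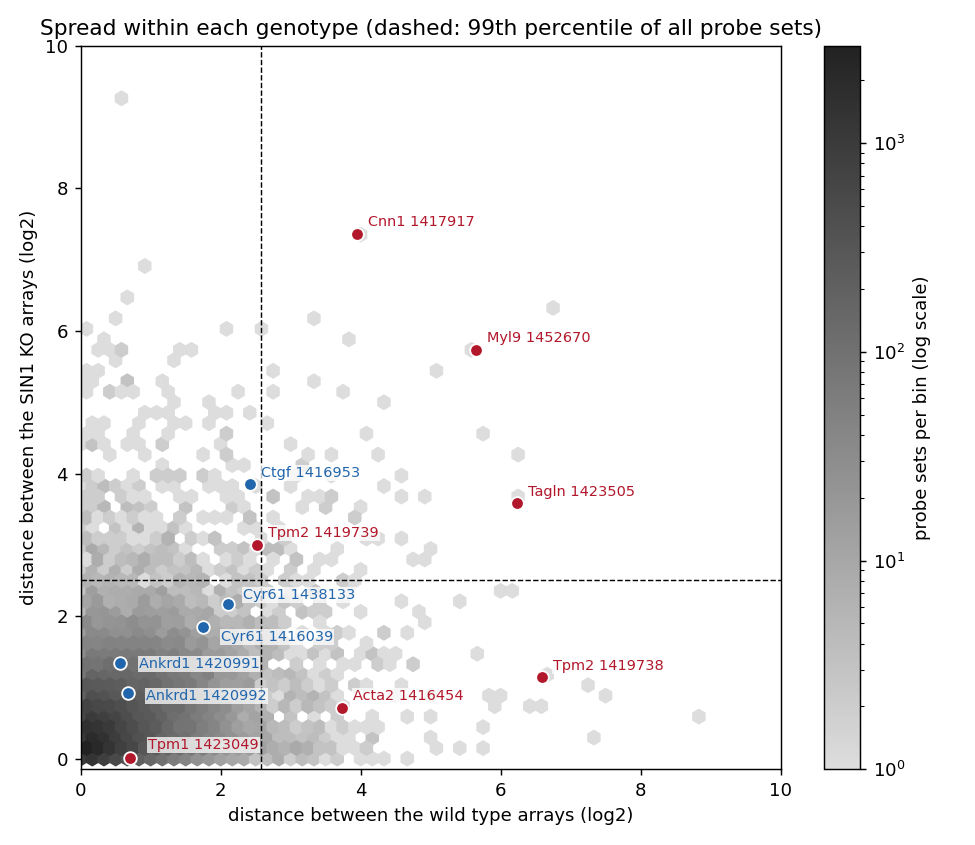
Distance between the wild type arrays (horizontal, log2) against that between the SIN1 KO arrays (vertical, log2), with all 45037 probe sets as grey hexagons, contractile probe sets in red and Ctgf, Cyr61 and Ankrd1 in blue; dashed lines mark the 99th percentiles, 2.57 and 2.503. Cnn1, Myl9 and Tagln lie beyond both lines, and Tpm1 lies near the origin. Values below background are plotted as deposited.

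Ctgf encodes a secreted matrix-associated protein of the CCN family and is among the most used readouts of YAP. Probe set 1416953_AT measured 11.77 on wild type 1, 9.35 on wild type 2, 7.27 on SIN1 KO 1 and 11.12 on SIN1 KO 2. SIN1 KO 1 was the low array here, and SIN1 KO 2 lay between the wild type arrays. The log2 difference of -1.36 (SE 1.56, 95% interval -5.53 to 2.81, limma adjusted p 0.862) was the lowest of the 12. Leaving out SIN1 KO 2 gave -3.29, and leaving out SIN1 KO 1 gave 0.56. It was -2.57 without wild type 2 and -0.15 without wild type 1. Between the number 1 arrays alone Ctgf was 4.50 log2 units lower in SIN1 KO (rank 16 from the bottom of all probe sets), and between the number 2 arrays 1.78 higher.

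Cyr61, another secreted CCN protein and an early target of both SRF and YAP, was read by 2 probe sets. The first, 1416039_X_AT, measured 11.63 on wild type 1, 9.89 on wild type 2, 9.85 on SIN1 KO 1 and 11.70 on SIN1 KO 2. The second, 1438133_A_AT, measured 11.16, 9.05, 8.94 and 11.11 on the same arrays. The x suffix of the first marks probes that can bind other transcripts, yet both gave the same picture of 2 high arrays, wild type 1 and SIN1 KO 2, and 2 low ones. The genotype means were nearly equal, with differences of 0.02 (95% interval -2.38 to 2.41) and -0.08 (95% interval -2.90 to 2.74) and limma adjusted p of 1.00 and 0.995. Cyclic loess turned the first to -0.06, and scaling to the hybridisation controls turned the second to 0.24. Leaving out wild type 1 or SIN1 KO 1 gave 0.89 to 1.01 over the 2 probe sets, and leaving out wild type 2 or SIN1 KO 2 gave -1.16 to -0.85.

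Ankrd1 encodes a nuclear ankyrin repeat protein that responds to stretch. Its probe set 1420991_AT gave 5.88 on wild type 1, 5.31 on wild type 2, 5.04 on SIN1 KO 1 and 6.39 on SIN1 KO 2. The other, 1420992_AT, gave 6.09, 5.42, 5.05 and 5.97 on the same arrays. The SIN1 KO arrays spanned both wild type arrays on the first probe set and reached below them on the second. The differences were 0.12 (95% interval -1.35 to 1.60, limma adjusted p 0.971) and -0.24 (95% interval -1.47 to 0.98, limma adjusted p 0.917). Scaling to the hybridisation controls turned the second to 0.08. The first was -0.16 without wild type 2 and -0.55 without SIN1 KO 2. The second was 0.10 without wild type 1 and 0.22 without SIN1 KO 1. Each value was above background, and the arrays of a genotype were at most 2.54-fold apart.

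The same windows were searched for CATTCC and its reverse complement GGAATG, the core that TEAD factors bind, which 12.6% of all windows held on either strand. Cyr61 held it from -103 to -98, and Ankrd1 from -210 to -205 and from -123 to -118. Neither of these windows held a CArG box, strict or looser. These windows are shown with the core in capitals because Cyr61 and Ankrd1 stand in the set as YAP targets. Cyr61, listed by RefSeq as Ccn1, is chr3:145649986-145650235 and Ankrd1 chr19:36119845-36120094, both on the minus strand.
Cyr61: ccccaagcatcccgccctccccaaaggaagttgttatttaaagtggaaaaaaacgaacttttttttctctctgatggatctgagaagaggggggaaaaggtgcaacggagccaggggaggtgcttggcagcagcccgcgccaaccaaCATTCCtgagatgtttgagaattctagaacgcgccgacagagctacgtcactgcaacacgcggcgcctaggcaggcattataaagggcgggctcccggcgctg
Ankrd1: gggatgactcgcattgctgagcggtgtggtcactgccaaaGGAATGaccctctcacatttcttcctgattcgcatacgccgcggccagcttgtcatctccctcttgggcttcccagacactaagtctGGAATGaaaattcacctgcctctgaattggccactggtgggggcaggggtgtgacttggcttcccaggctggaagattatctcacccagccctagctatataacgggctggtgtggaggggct
The Acta2 window (from -146 to -141) and the Tpm1 window (from -56 to -51) held the core too.

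SIN1 KO 1 was the lowest array for 5 of the 5 probe sets of Ctgf, Cyr61 and Ankrd1, where it was lowest for 19.9% of all probe sets, and for 0 of the 7 contractile ones. For Cyr61 it lay only 0.03 and 0.11 below wild type 2. The placing depended on the scaling. SIN1 KO 1 was lowest for 4 of the 5 under median centring and for 2 of the 5 with arrays scaled to the hybridisation controls. The latter scaling moved the median difference of all probe sets from 0.04 to 0.36. It raised SIN1 KO 1 the most, as the array with the lowest mean of these controls (11.41). The share over all probe sets was not computed under these scalings. Whether the 2 groups of genes differ in their order over the arrays was not tested.

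The genotype difference had opposite signs in the numbered arrays. SIN1 KO 2 was above wild type 2 for 12 of the 12 probe sets, against 57.3% of all probe sets, and SIN1 KO 1 was below wild type 1 for 10 of the 12, against 51.4%. Both held together for 10 of the 12, against 31.1%, which repeats the second count because the first held for all 12. Tpm2 made the exceptions, at 0.74 and 1.02 in the number 1 arrays and, against the background of wild type 2, at least 7.94 and at least 4.47 in the number 2 arrays. Myl9 (-3.87 and 7.52) and Tagln (-1.82 and 8.01) reversed with each value above background. Cnn1 was at -3.43 and 6.71 against the background of its dark arrays, and so at least that far from 0 on each side. With arrays scaled to the hybridisation controls the count was 9 of the 12, with the share over all probe sets not computed. These counts are not independent of the array orders given above. Where wild type 2 is lowest, SIN1 KO 2 must lie above it, and where SIN1 KO 1 is lowest, it must lie below wild type 1. The array numbers come from the sample titles, which do not say that same-numbered arrays were handled together.

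**Figure D3:**
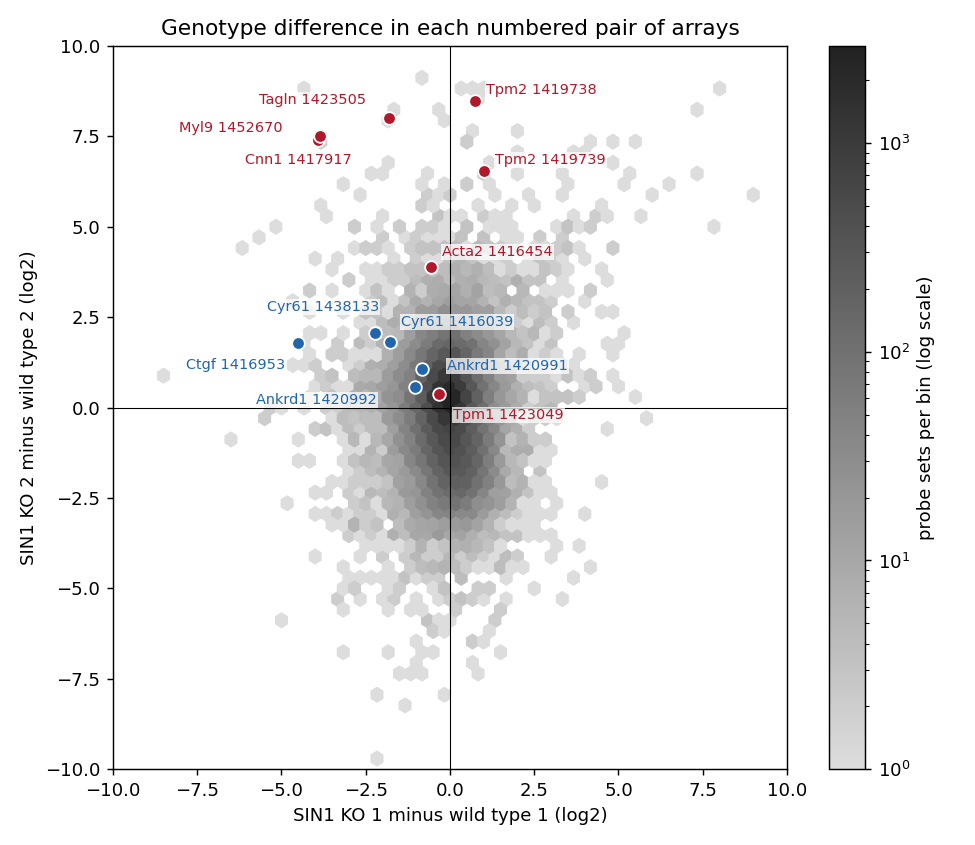
Log2 difference SIN1 KO minus wild type in the number 1 arrays (horizontal) against that in the number 2 arrays (vertical), with all 45037 probe sets as grey hexagons, contractile probe sets in red and Ctgf, Cyr61 and Ankrd1 in blue. All 12 lie above 0 on the vertical axis, and 10 of them lie left of 0 on the horizontal one. Values below background (Cnn1, Tpm2) are plotted as deposited.

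For 8 of the 12 probe sets the distance between arrays was larger than the genotype difference in both genotypes, against 39.9% of all probe sets. These were Tagln, Cnn1, Myl9, Ctgf and both probe sets of Cyr61 and of Ankrd1. Where a gene had 2 probe sets, they placed the lowest array alike. The Tpm2 pair also agreed that both SIN1 KO arrays were above both wild type arrays, but not on which genotype had the wider spread. For Cyr61 and Ankrd1 the highest array was SIN1 KO 2 on the first probe set and wild type 1 on the second. Within each of these pairs the genotype differences had opposite signs.

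**Figure D4:**
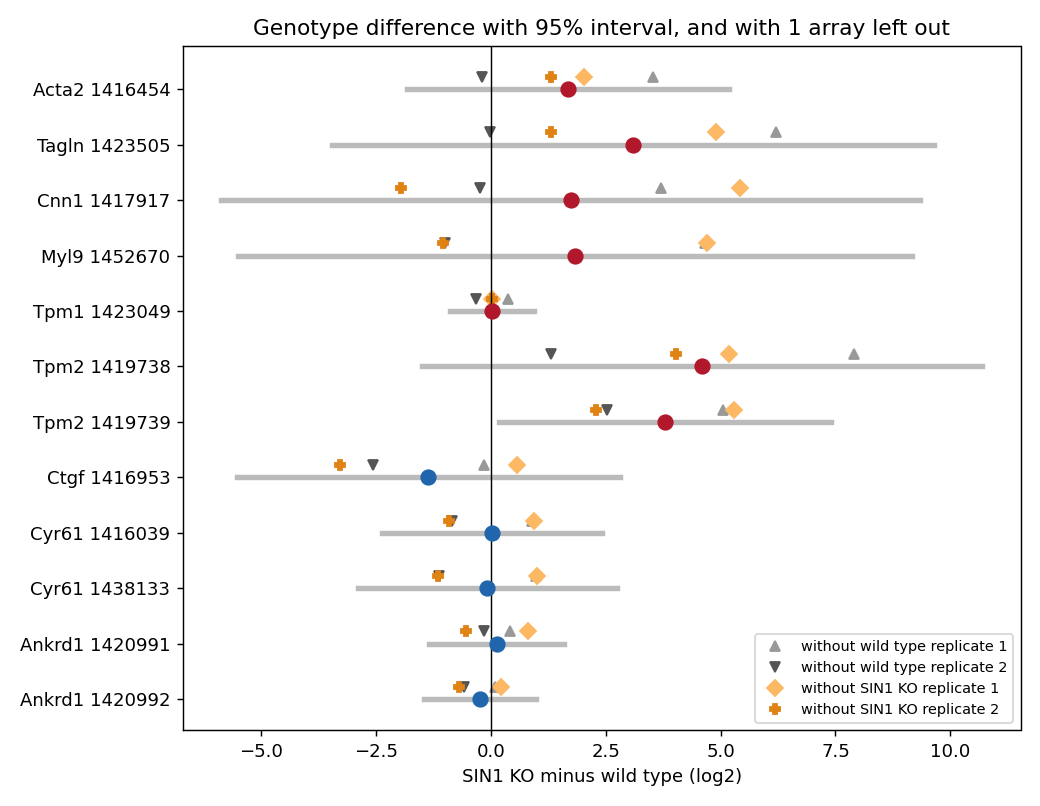
Log2 difference SIN1 KO minus wild type (circles; red, contractile; blue, Ctgf, Cyr61 and Ankrd1) with limma's 95% interval (grey bars), and the difference with each array left out (small symbols). The interval of Tpm2 1419739_AT, from 0.17 to 7.40, is the only 1 that does not include 0. Leaving out an array moved 10 of the 12 differences across 0, with the share over all probe sets not computed. Values below background (Cnn1, Tpm2) are used as deposited. With background in place of the lower value, the difference of Tpm2 1419739_AT was 2.75 in place of 3.78.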

How the data were processed

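The authors deposited log2 values made with RMA (background correction, normalization between arrays and summary by probe set), per the submitters' processing notes, with settings not given in the sources used here, and the log2 scale was taken from the values. Of 45101 probe sets, 64 named controls were left out and 45037 were fitted with limma 3.58.1 in R 4.3.3 (lmFit, eBayes without trend, Benjamini-Hochberg adjustment, threshold 0.05), on 2 residual and 2.38 prior degrees of freedom. The fit was also run on simulated data with independent noise on each value, and the outcome is not given here. The number of arrays limits the precision. All 12 probe sets are named, and all lay at or above the median level used as a filter. The members and lists were chosen with earlier results of these data known. Pathway lists, cell type markers and Mapkap1 were not analysed here, because no table used here pairs probe set IDs with genes. Same-numbered arrays deviated in opposite directions over all probe sets (r = -0.415), so numbers were not taken to pair arrays. Alternatives were other scalings, a filter, other priors, blocks, background floors and left-out arrays. Promoter windows are from RefSeq, GRCm38.p6. Python 3.11.15 with matplotlib 3.10.9 made the figures.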

Additional observations from a re-analysis of the deposited data

How the results depend on the processing

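The counts of array order, of unadjusted calls under other settings and of numbered arrays, the floor on fewer probe sets, and the list medians and bounds with an array left out, were chosen after the data were seen. Of 132 alternative values of the 12 differences other than left-out or numbered arrays, 123 kept their sign and stayed short of the adjusted threshold. The filter, the other priors and the blocks leave each difference as it was, so those signs were fixed in advance. Only the scalings and the background floors could turn a sign among these alternatives. Signs turned for Tpm1 (-0.084) and Cyr61 1416039_X_AT (-0.055) under cyclic loess and for Cyr61 1438133_A_AT (0.24) and Ankrd1 1420992_AT (0.077) with scaling to the hybridisation controls. Adjusted p passed the threshold, for 5 probe sets higher in SIN1 KO, only with values raised to the highest Bacillus subtilis control. That fit gave every probe set 1 common variance (412 higher and 376 lower called in all), and on the 27812 probe sets above that level on an array it called 0 of the 12. Elsewhere adjusted p was 0.304 to 1.00, and 0.57 to 1.00 with an array left out. With the unadjusted threshold the counts higher and lower were 1 and 0, against 1350 and 1159 of all 45037 probe sets. With that floor they were 6 and 1, against 1619 and 2042. On the fewer probe sets 2 were higher, against 903 of the 27812. The replicate block gave 0 higher, against 663. The crossed pairing gave 4 higher and 1 lower, against 2899 and 3473. Leaving out an array could change the count of members called higher, and the number called over all probe sets changed too. Genotypes that do not overlap numbered 2 higher and 0 lower. With an array left out, which loosens the rule, they numbered 2 to 8 higher and 0 to 5 lower. These were 7 and 8 higher without wild type 1 or SIN1 KO 1, and 4 and 5 lower without wild type 2 or SIN1 KO 2. For left-out arrays the share over all probe sets was not computed. In the numbered arrays alone 12 were higher (number 2, against 57.3% of all probe sets) and 10 lower (number 1, against 51.4%). SIN1 KO 1 was lowest for 2 of the 5 induced probe sets with scaling to the hybridisation controls, where the share over all probe sets was not computed. The number 1 arrays alone reversed Acta2 (-0.56), Tagln (-1.82), Cnn1 (-3.93), Myl9 (-3.87), Tpm1 (-0.33), Cyr61 1416039_X_AT (-1.78) and Ankrd1 1420991_AT (-0.84), and the number 2 arrays alone Ctgf (1.78), Cyr61 1438133_A_AT (2.06) and Ankrd1 1420992_AT (0.56). With an array left out, the ranges were -0.20 to 3.53 for Acta2, -0.023 to 6.22 for Tagln, -1.95 to 5.42 for Cnn1, -1.04 to 4.69 for Myl9, -0.33 to 0.37 for Tpm1, 1.31 to 7.90 and 2.28 to 5.29 for Tpm2, -3.29 to 0.56 for Ctgf, -0.91 to 0.94 and -1.16 to 1.01 for Cyr61, and -0.55 to 0.80 and -0.70 to 0.22 for Ankrd1. The Cnn1 and Tpm2 values include arrays below background, as deposited; with the background level in their place the ranges were -1.80 to 5.07 for Cnn1 and 1.31 to 7.37 and 1.25 to 4.25 for Tpm2. The lone array of a genotype then took its spread from the other genotype. The cause of these changes was not tested.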
